A study of Mus musculus with 6 samples.

Results

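H3K27ac, the acetylated form of lysine 27 on histone H3, was mapped by chromatin immunoprecipitation and sequencing in cardiac neural crest cells of the mouse, and the H3K27ac regions were set against peaks called in input chromatin. A region was the merged extent of overlapping H3K27ac peaks that held a peak of both H3K27ac libraries, lay on chromosomes 1 to 19, X or Y, and overlapped no peak of either input library. Of 17756 regions found in both libraries, 17594 met this rule and 162 (0.912%) were left out because an input peak overlapped them. The cells came from embryos at stage E10.5 of a cross between Wnt1-Cre2 males and mTmG females. Cre recombinase under Wnt1 control switches the mTmG reporter from membrane Tomato to membrane GFP in cells of the neural crest lineage and in parts of the early neural tube, and GFP+ cells were sorted from pharyngeal arches 3 to 6. Both groups, H3K27ac and input, therefore share the Wnt1-Cre2; mTmG background and the same sort, and differ in whether the H3K27ac antibody was used. Each group had 2 libraries, numbered 1 and 2. The labels do not say how many embryos were pooled or whether the libraries came from separate litters or sorts, so the spread between libraries may be technical. The files are peak lists without read counts, so the depth of every library is unknown.

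H3K27ac is deposited mainly by the acetyltransferases EP300 and CREBBP and is removed by histone deacetylases. It marks nucleosomes on either side of active transcription starts and at active enhancers, and it cannot coexist on the same residue with H3K27me3, the Polycomb mark that covers many silent developmental genes. Cardiac neural crest cells leave the caudal hindbrain, pass through the caudal pharyngeal arches and give rise to smooth muscle of the arch arteries, to the septum of the outflow tract and to parasympathetic neurons of the heart.

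The promoters of 6 genes, 4 with a region and 2 without, are shown as examples of the sequences concerned. Each stretch is 300 bases from RefSeq (build GRCm38.p6, the same assembly as mm10), from 250 bases before to 50 bases after the listed transcription start, printed 5′ to 3′ along the gene. All 6 lie on the plus strand. Capitals mark any match, on either strand, to one of 8 motifs searched, and overlapping matches run together. The TATA box was searched as TATAAA, the box of NF-Y as CCAAT and the GC box of SP1 as GGGCGG. The ETS core was CCGGAAG, the core of the NRF1 site was GCGCATGCG, and the cyclic AMP response element was TGACGTCA. The E-box of MYC was searched as CACGTG, and the E-box of SNAI and ZEB proteins was searched as CACCTG. Ppp4r3b (chr11:29172726-29173025), a regulatory subunit of protein phosphatase 4, and Usp48 (chr4:137593922-137594221), a deubiquitinase, are shown because they held regions of the highest fold. Notch2 (chr3:98013288-98013587), a Notch receptor, and Sema3c (chr5:17574566-17574865), a semaphorin that guides crest cells to the outflow tract, are shown as crest genes with a region. Hand2 (chr8:57320733-57321032), a transcription factor of the arches and heart, and Hoxd13 (chr2:74667975-74668274), a posterior Hox gene, are shown as genes with a promoter rich in CpG and no region.
Ppp4r3b: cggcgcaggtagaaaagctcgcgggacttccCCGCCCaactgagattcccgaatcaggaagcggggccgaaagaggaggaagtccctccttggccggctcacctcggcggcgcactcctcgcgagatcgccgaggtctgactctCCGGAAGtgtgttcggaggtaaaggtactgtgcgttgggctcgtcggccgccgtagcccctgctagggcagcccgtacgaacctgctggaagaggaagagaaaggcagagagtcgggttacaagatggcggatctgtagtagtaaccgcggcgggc
Usp48: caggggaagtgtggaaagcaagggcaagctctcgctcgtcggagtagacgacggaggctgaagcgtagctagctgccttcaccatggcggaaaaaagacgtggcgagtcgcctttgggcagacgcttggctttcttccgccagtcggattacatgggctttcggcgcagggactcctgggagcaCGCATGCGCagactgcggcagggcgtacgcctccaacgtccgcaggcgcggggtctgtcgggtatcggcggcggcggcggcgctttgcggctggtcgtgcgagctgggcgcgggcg
Notch2: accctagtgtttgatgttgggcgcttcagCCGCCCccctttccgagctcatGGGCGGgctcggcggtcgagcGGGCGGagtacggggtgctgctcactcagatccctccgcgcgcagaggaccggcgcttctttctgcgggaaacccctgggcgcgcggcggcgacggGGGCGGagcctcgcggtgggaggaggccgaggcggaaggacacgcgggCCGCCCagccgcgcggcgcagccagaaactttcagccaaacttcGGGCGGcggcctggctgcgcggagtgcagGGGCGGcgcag
Sema3c: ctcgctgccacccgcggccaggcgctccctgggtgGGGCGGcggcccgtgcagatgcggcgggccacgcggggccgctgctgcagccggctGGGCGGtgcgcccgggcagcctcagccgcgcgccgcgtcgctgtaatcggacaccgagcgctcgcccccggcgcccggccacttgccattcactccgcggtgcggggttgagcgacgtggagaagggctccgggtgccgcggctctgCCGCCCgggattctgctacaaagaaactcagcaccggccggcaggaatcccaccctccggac
Hand2: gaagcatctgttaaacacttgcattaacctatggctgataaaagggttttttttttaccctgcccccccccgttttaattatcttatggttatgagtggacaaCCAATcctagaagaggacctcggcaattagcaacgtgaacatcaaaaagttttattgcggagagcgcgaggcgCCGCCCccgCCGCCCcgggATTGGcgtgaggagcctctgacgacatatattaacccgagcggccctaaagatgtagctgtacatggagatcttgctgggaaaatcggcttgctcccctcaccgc
Hoxd13: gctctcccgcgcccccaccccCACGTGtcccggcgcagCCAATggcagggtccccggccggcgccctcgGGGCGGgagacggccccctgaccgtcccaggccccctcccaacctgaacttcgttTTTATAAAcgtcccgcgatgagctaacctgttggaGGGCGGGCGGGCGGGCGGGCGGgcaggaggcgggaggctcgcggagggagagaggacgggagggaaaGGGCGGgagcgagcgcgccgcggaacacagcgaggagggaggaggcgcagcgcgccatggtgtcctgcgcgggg
The observed over expected CpG ratio of these stretches was 1.02 in Ppp4r3b, 1.16 in Usp48, 1.04 in Notch2, 0.979 in Sema3c, 0.897 in Hand2 and 0.904 in Hoxd13. A ratio near 1 means that CpG is as frequent as the C and G content alone would give, and the median of all protein-coding promoters was 0.567. The 4 promoters with a region and the 2 without thus all stood above that median.

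The H3K27ac lists and the input lists differed in number, width and place. The H3K27ac libraries held 24283 and 22686 peaks and the input libraries 451 and 512. Median peak width was 543 and 549 bp for H3K27ac and 109 and 110 bp for input. A peak was counted at a promoter when it lay within 1 kb of a listed transcription start of a protein-coding gene, or within 1 kb of either end of a gene whose start is not listed. By this measure 58.2% and 60.0% of the H3K27ac peaks, and 2.66% and 4.69% of the input peaks, lay at promoters. The groups did not overlap. The promoter share was 59.1% ± 1.25 for H3K27ac and 3.67% ± 1.43 for input (SD, n = 2 libraries each), a difference of 55.4 percentage points, with p = 0.333 in a two-sided exact permutation test, the smallest p that 2 against 2 libraries can give. Input peaks lay mostly between genes, with 74.9% and 73.6% intergenic, against 22.5% and 21.5% of the H3K27ac peaks.

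The recurring H3K27ac peaks were the wide and strong ones. Of the peaks of library 1, 75.8% had a partner in library 2, and the share was 81.3% in the other direction. Fold here is the enrichment at the summit that the authors' peak caller gave each peak, and its median was 4.04 and 3.98 for peaks shared by both libraries against 2.93 and 2.91 for the 5881 and 4234 peaks found in 1 library only. Shared peaks lay at promoters in 67.9% of cases in either library, and peaks of 1 library only in 27.8% and 25.2%. Within the regions, fold correlated between the libraries with a Spearman rho of 0.809 (n = 17594 regions, which share libraries and depth), and in 96.8% of regions the libraries differed by less than 1.5-fold. Promoter regions had a rho of 0.789 and distal regions 0.687, as the density plot of fold in both libraries shows.

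**Figure D1:**
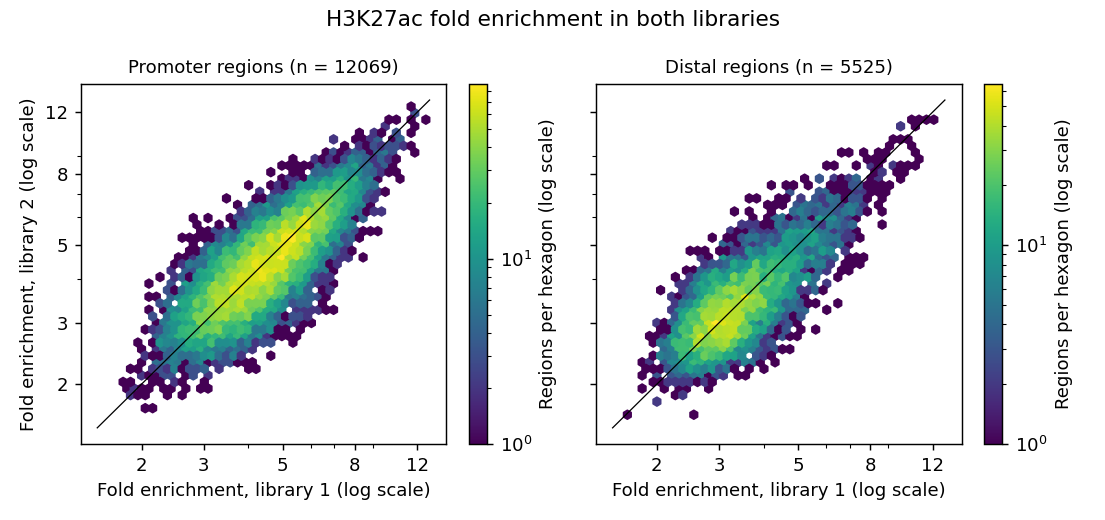
Fold enrichment of each H3K27ac region in library 1 (horizontal, log scale) and library 2 (vertical, log scale), for 12069 promoter regions (left) and 5525 distal regions (right); colour gives the number of regions per hexagon and the line marks equal fold. Promoter regions centre on medians of 4.49 and 4.39 and distal regions on 3.32 and 3.31, and both clouds follow the line.

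Most H3K27ac regions lay at promoters, and the share rose with the strength of the region. Of the 17594 regions, 12069 (68.6%) lay at a promoter, 2527 (14.4%) in a gene body and 2998 (17.0%) between genes; the last 2 classes together are the 5525 distal regions. Strength was measured as the mean percentile, the rank of the region's fold among all peaks of its library, averaged over both libraries. Promoter regions had a median mean percentile of 68.7 and distal regions 37.9. When the regions were ranked by mean percentile and divided into 10 equal groups, 32.5% of the lowest group and 89.7% of the highest lay at a promoter. Width went the same way, from a median of 584 bp in the lowest group to 992 bp in the highest. Wide regions were not always strong, and the Spearman rho between width and mean percentile was 0.428 across regions, which share both libraries. The widest region, 3007 bp at chr17:34119640-34122646 over the start of Brd2, a bromodomain reader of acetylated histones, and H2-DMa, had folds of 2.91 and 3.46 and a mean percentile of 32.8. A promoter region lay within 1 kb of the start points of more than 1 gene in 1480 cases (12.3%). Start points here include either end of a gene without a listed start. Of the 1480 regions, 1050 had genes on opposite strands. The 1480 had a median mean percentile of 71.4, against 68.3 for the 10589 near 1 gene only.

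Around transcription starts the summits formed a pair of flanking maxima with a gap at the start itself. This was measured at 12332 listed starts with no other start or gene end within 4 kb. Within 2 kb of them lay 9254 and 8981 H3K27ac summits and 13 and 18 input summits. Of the H3K27ac summits 64.9% and 64.7% lay downstream of the start. The median offset of all summits, upstream ones included, was 230 and 229 bp downstream. The fullest bin of 50 bp ran from 250 to 300 bp downstream, with 1076 and 1021 summits. The fullest bin upstream began at -400 bp, with 401 and 394 summits. The bin from the start to 50 bp downstream held only 68 and 61. Where a start lay inside a region, the region reached a median of 324 bp upstream and 712 bp downstream, and in 76.7% of 2771 such starts it reached further downstream. Both libraries gave the same shape, and the 2 input libraries gave no maximum.

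**Figure D2:**
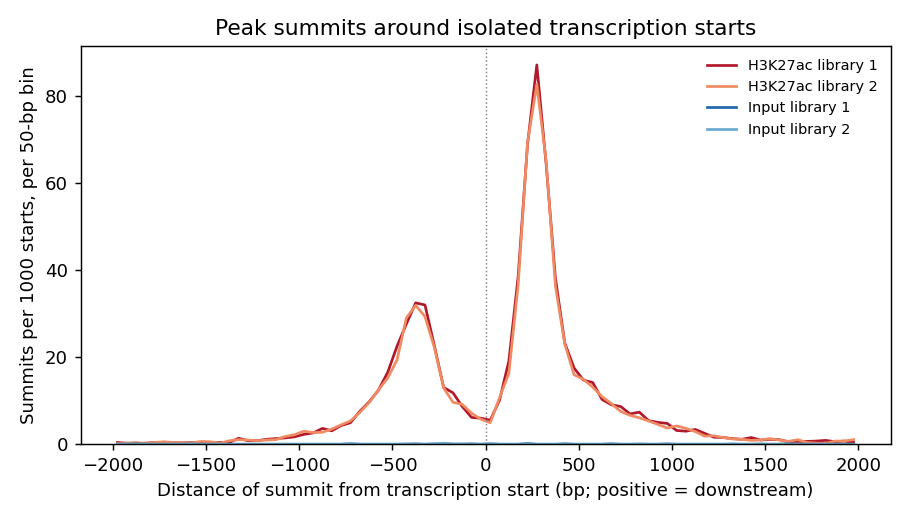
Summits per 1000 isolated transcription starts in bins of 50 bp (vertical) against distance from the start in bp, positive downstream (horizontal), for the 2 H3K27ac and 2 input libraries. The H3K27ac lines peak between 250 and 300 bp downstream and, lower, near 400 bp upstream, dip at the start and lie on each other; the input lines stay near 0.

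An H3K27ac region was found at the promoter of 10673 of 21776 protein-coding genes (49.0%), which is the background for all counts of genes below. A distal region was assigned to the nearest gene within 100 kb, which is a matter of distance and not of measured contact, and 3116 genes (14.3%) received at least 1. The share was 12.8% of genes with a listed start and 20.4% of genes without one, where a region at an unlisted start may count as distal. Distal regions fell on 16.8% of the genes with a promoter region and on 11.9% of those without. In all 1796 genes had both, 1320 had a distal region only and 9783 had neither. Of the distal regions, 951 lay beyond 100 kb of any gene start and stayed unassigned.

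The 10 promoter regions with the highest mean percentile were at Nfyc, Ppp4r3b, Smim10l1, Klhl24, Usp48, Nup85, Paip2, Lrr1, Zfp2 and Slc35b1. Nfyc, which encodes part of the NF-Y complex that binds CCAAT, had folds of 11.7 in library 1 and 12.7 in library 2 (chr4:120824792-120825812). Ppp4r3b had 11.9 and 12.1 (chr11:29172888-29173532), in a region that begins inside the promoter stretch printed above. Usp48 had 11.7 in both libraries (chr4:137593654-137594163). Nup85, a nucleoporin, had 11.5 and 11.3 (chr11:115563673-115564871), and Slc35b1, a nucleotide sugar transporter of the endoplasmic reticulum, had 10.8 and 10.3 (chr11:95384527-95385596). The SD between libraries was at most 0.698 in fold for these 10, at Nfyc, against a median fold of 4.49 and 4.39 over all promoter regions. None of the 10 was a member of the crest, arch or Hox lists described below. Ranked by −log10 q in place of fold, 3 of them stayed among the first 10.

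The share of genes with a promoter region differed between named families. The families were chosen after their values were seen and serve as a description. Ribosomal protein genes (Rpl and Rps) had a promoter region in 79 of 84 cases (94.0%), with a median mean percentile of 90.6. Mitochondrial ribosomal protein genes (Mrpl and Mrps) had one in 73 of 75 (97.3%), with a median of 80.7. Zinc finger genes with the symbol Zfp had one in 290 of 367 (79.0%), with a median of 80.9. Olfactory receptor genes (Olfr) had none in 1109, vomeronasal receptor genes (Vmn) none in 350, and keratin genes (Krt) had one in 2 of 53. These shares run from 0 to 97.3% around the background of 49.0%. By chromosome, 25.4% of 963 genes on X and 1 of 253 on Y had a promoter region, against 50.7% of 20560 autosomal genes, whose chromosomes ranged from 39.3% to 58.7%.

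Promoters under H3K27ac regions were rich in CpG. Of 21263 listed promoter stretches of protein-coding genes, 8201 were overlapped by a region. Their median CpG ratio was 0.811 and their median GC content 62.7%, against 0.298 and 51.7% in the 13062 that were not overlapped. In the bin of the lowest CpG ratio, below 0.2, 69 of 4695 promoters were overlapped (1.47%), and the share rose in each bin to 1320 of 1730 (76.3%) at ratios of 1 and over. Taken by gene, 7229 of 8896 genes with a listed promoter at a ratio of at least 0.6 had a region (81.3%), and 1451 of 8596 genes with all listed promoters below it (16.9%).

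**Figure D3:**
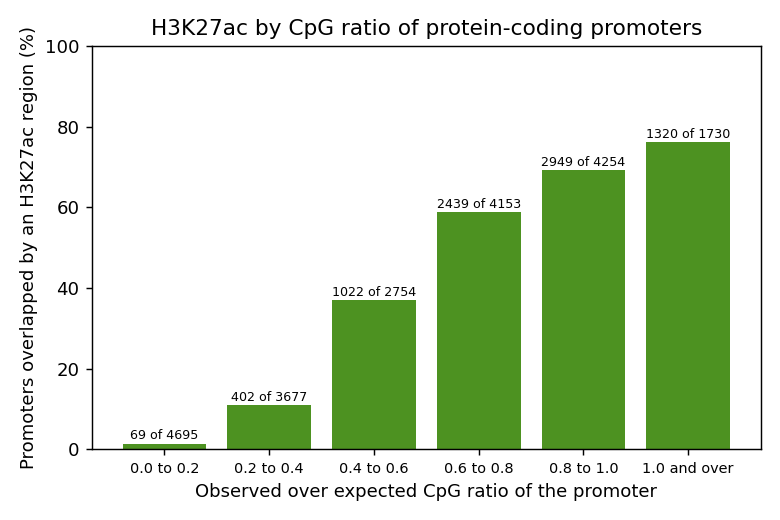
Share of listed protein-coding promoters overlapped by an H3K27ac region (vertical, percent) by observed over expected CpG ratio of the promoter stretch (horizontal); numbers above the bars give overlapped promoters of all in the bin. The bars rise from 1.47% below a ratio of 0.2 to 76.3% at 1 and over.

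Motif shares also differed between promoters with and without a region. The GC box, ETS core, NRF1 core, cyclic AMP response element and E-box of MYC, which contain CpG, were more frequent under the regions. The TATA box, the box of NF-Y and the E-box of SNAI and ZEB proteins, without CpG, were rarer or differed little. The median CpG ratio was 0.811 with a region and 0.298 without. Whether any motif differed at equal CpG ratio was not tested. The GC box GGGCGG, itself made of G and C, stood in 68.2% of overlapped promoters, 32.4% of the others and 46.2% of all protein-coding promoters of the same length. The ETS core CCGGAAG stood in 21.1%, 5.60% and 11.6% of these sets, and the NRF1 core GCGCATGCG in 4.40%, 1.06% and 2.35%. The cyclic AMP response element TGACGTCA stood in 3.73%, 1.29% and 2.23%. The TATA box TATAAA was rarer under the regions, at 5.50% against 17.1% of promoters not overlapped and 12.6% of all. CCAAT differed little, with 35.8%, 39.7% and 38.2%. CACGTG stood in 10.6%, 6.10% and 7.84%, and CACCTG in 15.5%, 22.3% and 19.7%.

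Among overlapped promoters, strength went with some motifs and not with others. The 821 promoters in the highest 10% by mean percentile held the NRF1 core in 6.94% and the ETS core in 20.1%, and the lowest 10% in 0.974% and 11.4%. The GC box did not rise with strength, at 60.9% in the highest 10% and 66.7% in the lowest. The CpG ratio had a median of 0.840 in the highest 10% and 0.714 in the lowest, while GC content was 61.0% and 62.3%. A match is a stretch of letters, and no binding was measured.

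Genes that define the neural crest carried H3K27ac at low fold where a promoter had it. Of 20 neural crest specifiers, transcription factors and Id proteins that establish the crest, 7 had a promoter region (35%, against 49.0% of all genes). The count was 9 without H3K27ac library 2 and 3 with peaks of −log10 q of at least 5, and the difference from the background was not tested. Their mean percentiles ran from 12 to 22.2 with a median of 15.2, against a median of 75.2 over all genes with a promoter region. Zeb2, a repressor active in crest migration, was the strongest, with folds of 2.69 and 3.12 at chr2:45116500-45116985. Sox8 had 2.81 and 2.84, Msx2 had 2.68 and 2.89, and Id1 had 2.90 and 2.57. Twist1, a factor of crest mesenchyme, had 2.36 and 2.97 at chr12:33956646-33957213, and Mycn had 2.71 and 2.63. Sox9 had 2.52 and 2.77 at chr11:112782330-112783038. The 7 genes spanned folds of 2.36 to 3.12 over both libraries, so their order rests on differences about as large as those between libraries.

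The other 13 crest specifiers had no promoter region. Sox10 and Foxd3, which mark early and glial crest, had no peak in either library, at the listed start of Foxd3 or at either end of Sox10, whose start is not listed, and their nearest regions were 36.7 and 58.7 kb away. Snai2, Msx1 and Id2 had a promoter peak in 1 library only. Snai1 had no promoter peak and 2 distal regions, the stronger with folds of 2.73 and 3.44 at chr2:167559420-167560131. Id3 also had 2 distal regions, and the stronger had folds of 3.70 and 3.47 at chr4:136134007-136136054, 7.77 kb from the start. Tfap2a had 1 distal region 2.07 kb from the nearest listed start, inside the gene, with folds of 4.24 and 3.81, higher than any crest promoter in either library. In all 11 of the 20 had a distal region (55.0%, against 14.3% of all genes and 20.4% of genes without a listed start). Of the 20, 6 have no listed start, and the difference was not tested. Thus no peak was called at the searched points of Sox10 and Foxd3, and regions of low fold were called at Twist1, Sox9 and Msx2. With depth unknown, a missing call does not show that the mark was absent.

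Outflow tract and cardiac crest genes had a promoter region in 13 of 26 cases (50%), near the background, and their strength varied widely. Receptors and ligands led. Notch2 had folds of 6.95 and 5.89 (mean percentile 93.0; chr3:98013507-98014250), Tgfbr2, the type II TGF-beta receptor, 5.83 and 5.48 (87.3; chr9:116174293-116175783), and Bmpr1a, a BMP receptor, 5.50 and 4.97 (82.0; chr14:34502848-34503695). Jag1, a Notch ligand, had 5.04 and 4.68, and Sema3c 4.49 and 4.66. Ednra, the endothelin A receptor of arch crest, had 3.50 and 3.25. Pdgfra, a receptor of crest mesenchyme, and Cxcr4, a chemokine receptor, stood at the low end with 2.64 and 1.97, and 2.58 and 2.03. Transcription factors of the list were mostly without a region. Hand1, Hand2, Gata4 and Tbx1 had no promoter peak in either library, and the nearest region to Hand2 was 166 kb away. Tbx2 had 2 distal regions, the stronger with folds of 2.93 and 3.09 at 1.73 kb from a gene end.

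Arch mesenchyme genes resembled the crest specifiers in level. Of 25, 9 had a promoter region (36.0%), with mean percentiles from 1.95 to 33.9 and a median of 17.5. Prrx2, a homeobox gene of arch mesenchyme, had folds of 2.93 and 3.46, and Eya1, a transcriptional cofactor and phosphatase, 3.16 and 3.20. Tshz2 had 3.09 and 2.90, and Twist2 had 3.32 and 2.60. Prrx1, Alx1 and Alx4 had no region at the promoter, Alx4 with a peak in 1 library only. Distal regions were assigned to 11 of the 25 (44.0%), and 12 of the 25 have no listed start. Nr2f1, an orphan nuclear receptor gene, combined the weakest promoter of the list (2.28 and 2.25) with a distal region of 5.42 and 5.40 at 32.5 kb. That distal region lay inside another gene, Fam172a. Meis2, a TALE homeobox gene, had no promoter region and 4 distal ones, the strongest with folds of 3.41 and 3.12 inside the gene.

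Among the listed Hox genes only anterior ones had a promoter region, mostly at low fold. Crest of arches 3 to 6 comes from the hindbrain, where anterior Hox genes are active. Of 15 anterior Hox genes, 5 had a promoter region (33.3%, against 49.0% of all genes), and of 16 posterior ones none had a promoter region or a distal region. The 5 anterior genes had a median mean percentile of 13.2, and 2 of them have a listed start. With peaks of −log10 q of at least 5, 1 anterior gene kept a promoter region. Hoxd1 had folds of 3.1 and 3.72 at chr2:74763165-74763513, and Hoxa5 had 3.09 and 3.18 at chr6:52203706-52204241. Hoxb5 had 2.34 and 2.95, Hoxc5 had 2.91 and 2.35, and Hoxb2 had 2.14 and 2.05, a mean percentile of 0.657. Hoxa2, Hoxa3 and Hoxa4 had no region, with a peak of 1 library only at Hoxa2 and Hoxa4. The nearest region to Hoxd13 was 71.8 kb away, at chr2:74740053-74740903 inside the annotated extent of Hoxd3, with folds of 2.26 and 1.99.

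Promoter shares differed between the lists of crest derivatives. Smooth muscle and matrix genes had a promoter region in 16 of 24 (66.7%), with a median mean percentile of 55.4. This list includes Actb, which also stands in the housekeeping list, so its share does not rest on lineage genes alone. Tpm4, a tropomyosin, had folds of 5.08 and 6.05, Srf, a factor of muscle and growth genes, 5.35 and 4.55, and Lox, which cross-links collagen and elastin, 5.05 and 3.88. The matrix genes Fn1 (4.22 and 4.36), Col1a2 (4.27 and 4.0) and Col1a1 (4.42 and 3.66) had lower mean percentiles, with ranges that overlapped that of Lox. Acta2, Cnn1, Cnn2 and Myh11, contractile genes of smooth muscle, had no promoter region, Cnn2 with a peak in 1 library only. Other contractile genes of the list had one, Tagln with 3.24 and 2.97 and Tpm1 with 3.82 and 3.63. Of the matrix genes, Tnc, Postn and Bgn had none either, Bgn with a peak in 1 library only.

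Autonomic neuron genes had a promoter region in 5 of 22 (22.7%). Elavl4, a neuronal RNA-binding protein, had folds of 6.83 and 7.61 (mean percentile 96.8), Isl2, a LIM homeobox factor, 4.0 and 4.20, and Neurod1 3.18 and 3.22. Phox2a, Gata2 and Gata3 had no promoter region, and Phox2a had 1 distal region 3.15 kb away with 4.66 and 4.39. Glia and melanocyte precursor genes had a promoter region in 9 of 16, with a median mean percentile of 47. A start is listed for 5 of the 9, and the regions of the others may lie at the 3′ end. Of the 9, Pmel (7.39 and 5.34) shares its region with the start of Rab5b, which is broadly expressed. Kit, a receptor of melanoblasts, had 4.33 and 5.38, and Mbp, a myelin gene, 3.59 and 4.36. The receptors Ednrb (3.69 and 3.30) and Erbb3 (3.44 and 3.19) followed. S100b, Cdh19 and Mitf had none, Mitf with a peak in 1 library only.

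**Figure D4:**
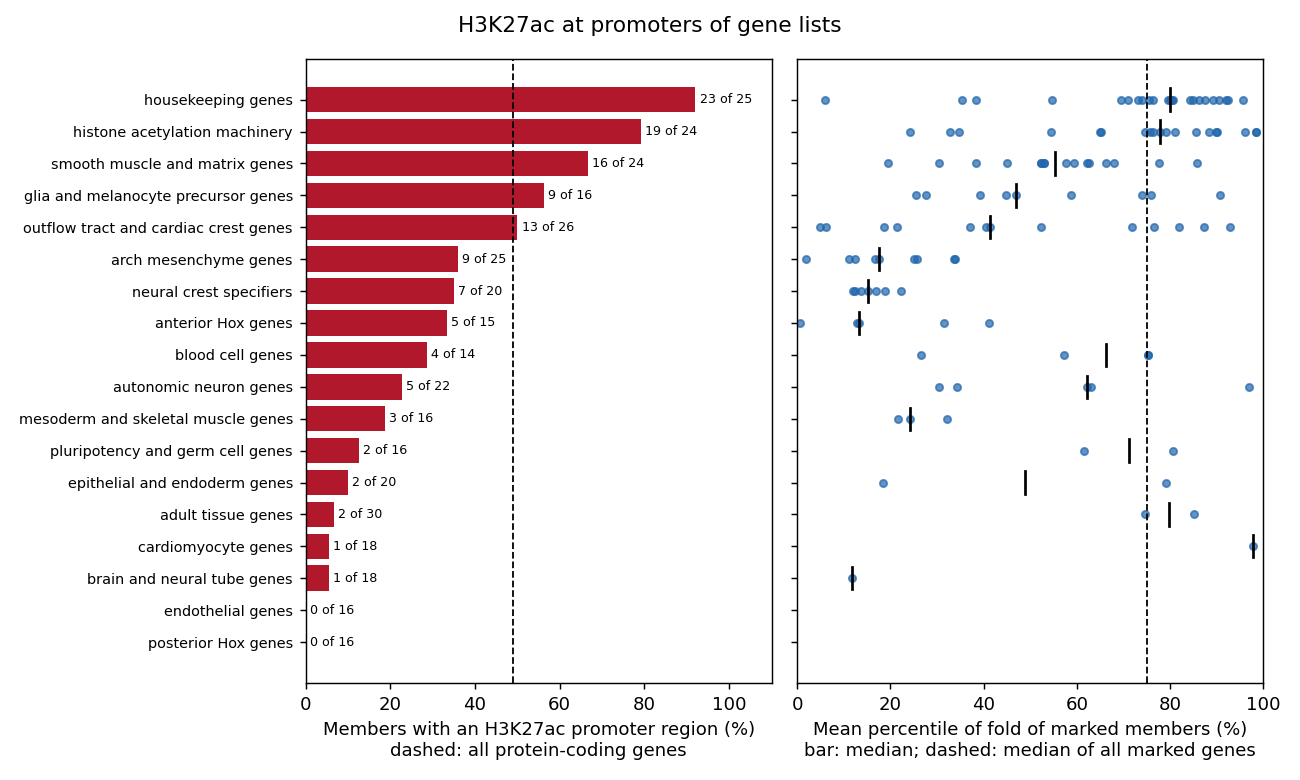
Left, percent of the members of each of 18 gene lists with an H3K27ac promoter region, with the counts beside the bars and a dashed line at 49.0% for all protein-coding genes. Right, mean percentile of fold of each member with a region (points), the list median (bar) and the median of all such genes, 75.2 (dashed); crest specifiers, arch mesenchyme and anterior Hox genes lie left of it.

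Lists of other cell types, those of pluripotent cells, germ cells and adult tissues included, had promoter shares below the background of 49.0%. The crest specifiers (35%), arch mesenchyme (36.0%), anterior Hox (33.3%) and autonomic neuron genes (22.7%) were below it too. The autonomic neuron share was also below that of blood cell genes (28.6%). Endothelial genes had 0 of 16, with a peak of 1 library at 3 more, and brain and neural tube genes 1 of 18, Sox2, with folds of 2.75 and 2.55. Cardiomyocyte genes had 1 of 18, Myl4, with 7.28 and 7.97 in a region shared with the start of Cdc27, a subunit of the anaphase-promoting complex. Nkx2-5, Tnnt2 and Myh6 had no peak in either library. Blood cell genes had 4 of 14, Spi1 (4.33 and 5.29), Klf1 (4.56 and 4.97), and Runx1 (3.61 and 4.20) among them, while Gata1, Hba-a1 and Ptprc had no peak. Epithelial and endoderm genes had 2 of 20, Grhl2 (5.56 and 4.59) and Krt8 (2.84 and 2.79). Mesoderm and skeletal muscle genes had 3 of 16, Des (2.88 and 3.46), Tbx6 (2.82 and 3.09) and Tcf15 (3.15 and 2.60). Pluripotency and germ cell genes had 2 of 16, Dazl (4.99 and 5.26) and Klf4 (4.15 and 4.02), and adult tissue genes 2 of 30, Sftpc (5.88 and 5.13, in a region shared with Bmp1) and Krt1 (4.85 and 4.60). Neither Sftpc nor Krt1 has a listed start, so their regions may lie at the 3′ end. Among genes with a region, a start is listed for 2 of 4 blood cell genes. It is listed for 1 of 2 epithelial and endoderm genes and 2 of 3 mesoderm and skeletal muscle genes. The same limit holds for the rest. Distal regions were assigned to 6 of 16 endothelial (37.5%), 5 of 20 epithelial and endoderm (25%), 4 of 18 brain and neural tube, 3 of 16 mesoderm and skeletal muscle, 2 of 14 blood cell and 1 of 18 cardiomyocyte genes, against 14.3% of all genes. Some were strong. The distal region of Sox17, a factor of endothelium and endoderm, had 5.79 and 7.64 at 73.7 kb, that of Vwf had 5.29 and 4.74, and the stronger one of Grhl2 had 7.06 and 5.97 at 96.4 kb. The part of other cells in these regions was not tested.

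Broadly expressed genes carried the mark at nearly every promoter. Of 25 housekeeping genes 23 had a promoter region (92.0%), with a median mean percentile of 79.9. Vcp, an ATPase of protein quality control, had folds of 6.78 and 6.85, Snrpd3, a spliceosome protein, 7.94 and 5.55, Sdha, a subunit of mitochondrial complex II, 7.02 and 5.67, and Psmb4, a proteasome subunit, 5.82 and 6.21. The 2 without, Ywhaz and Reep5, have no listed start in the table used, so only their gene ends were searched. Regions lay inside both genes, with folds of 5.19 and 5.84 in Ywhaz and 5.94 and 5.97 in Reep5.

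Writers, erasers and readers of histone acetylation had a promoter region in 19 of 24 cases (79.2%), with a median mean percentile of 77.9. Kat7, an acetyltransferase of the HBO1 complex, had folds of 7.57 and 8.23 (98.4; chr11:95309744-95310312). Kat5 had 7.39 and 6.60, and the deacetylase Hdac2 6.29 and 5.64. Ep300, the main writer of H3K27ac, had 5.75 and 6.10, and its paralog Crebbp 5.07 and 4.60. Kat6a, Hdac3, Hdac8, Brdt and Sin3a had none, of which Kat6a, Hdac3 and Sin3a had a peak in 1 library only.

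Promoters of crest specifiers were not poor in CpG. Where starts were listed, 11 of 14 crest specifiers had a CpG ratio of at least 0.6, and 4 of these 11 had a region, against 81.3% of all genes at that ratio. Among arch mesenchyme genes 3 of 9 such genes had a region, among autonomic neuron genes 4 of 10, among brain and neural tube genes 1 of 12 and among posterior Hox genes 0 of 6. Housekeeping genes had a region at 16 of 16, acetylation genes at 15 of 17 and smooth muscle and matrix genes at 6 of 8. Most cardiomyocyte and adult tissue genes lay below that ratio, with 3 of 18 and 1 of 24 at or above it.

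Distal H3K27ac regions were weaker than promoter regions, with a median fold of 3.32 and 3.31 and a median distance of 27.3 kb from the nearest protein-coding start point. Of the 10 with the highest mean percentile, 9 had a non-coding gene or pseudogene of the RefSeq table within 1 kb, and 6 of these were small nuclear or small nucleolar RNA genes. The strongest, at chr13:48546004-48546552, 32.6 kb from Zfp169, had folds of 12 and 11.3 and no such gene beside it. The region 10.6 kb from Kif2c (chr4:117189365-117190249) had 11.5 and 11.3 and lay at Gm25099, and 2 regions near Eapp (chr12:54729231-54729782 and chr12:54719185-54719714) had 10.9 and 11.3, and 9.83 and 11.0, at Gm26444 and Gm25679. Inside Tex14, 2 regions at Rnu3b2 and Rnu3b4, genes of the U3 RNA that guides ribosomal RNA processing, had 10.6 and 11.2, and 10.4 and 9.78. The region 14.0 kb from Cyp24a1 and inside Pfdn4 (chr2:170511126-170511932) had 10.48 and 11.1 and lay at Gm16796, a long non-coding RNA gene. The region 6.07 kb from Pom121l2 (chr13:21974256-21975112) had 10.1 and 10.2 and lay at a methionine tRNA gene, n-TMcat8. The SD between libraries in these 10 was at most 0.801, at the second Eapp region.

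The same search over all 5525 distal regions was added after these 10 had been seen, and gave lower shares. Small nuclear or nucleolar RNA genes lay within 1 kb of 69 distal regions (1.25%), whose median folds were 6.23 and 6.63 and whose median mean percentile was 92.6. In the strongest 10% of distal regions they lay beside 51 of 553 (9.22%), and in the weakest 10% beside 3 (0.542%). tRNA genes lay beside 92 distal regions (1.67%), with median folds of 4.22 and 4.04, and beside 4.70% of the strongest 10%. Long non-coding RNA genes lay beside 800 (14.5%), and beside 25.3% of the strongest 10% against 12.1% of the weakest. Pseudogenes lay beside 7.59% of the strongest 10% and 0.181% of the weakest. miRNA genes went the other way, beside 0.723% of the strongest 10% and 1.08% of the weakest. Together these classes lay beside 1041 distal regions (18.8%), beside 42.0% of the strongest 10% and beside 13.9% of the weakest. The remaining 4484 distal regions had median folds of 3.26 and 3.24. Small RNA genes and pseudogenes have near-identical copies in the genome, and how reads that fit several copies were placed is unknown (not given in the sources used here).

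Stitching joined regions separated by gaps of up to 12.5 kb, the distance often used for clusters of enhancers. It gave 12773 stitched regions, of which 9135 held a single region, 2901 held 2 and 737 held 3 or more. The 737 took in 2657 regions (15.1%), with a median extent of 12.7 kb and a median of 2 protein-coding genes inside. Of them 317 consisted of promoter regions only, 90 of distal regions only and 330 of both. The distance of 12.5 kb did not fall at a natural break. There were 493 gaps of 10 to 12.5 kb and 458 of 12.5 to 15 kb, the largest gap joined was 12.497 kb and the smallest not joined 12.502 kb.

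**Figure D5:**
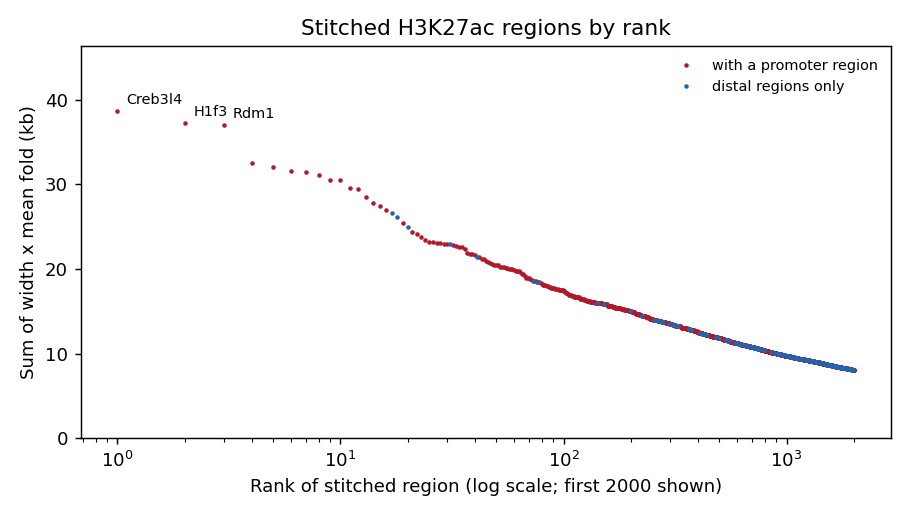
Stitched H3K27ac regions by rank (horizontal, log scale) and by the sum over members of width times mean fold in kb (vertical), in red where a promoter region is a member and in blue where all members are distal. The first 3 reach 38.6, 37.2 and 37.0, and the first 10 all hold a promoter region. Only the highest ranks are drawn, so a bend of the whole curve cannot be judged here.

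Stitched regions were ranked by the sum of width times mean fold over their members, in kb, which stands in for read signal. The highest, 38.6, lay at chr3:90212841-90266280 around Creb3l4, with 8 promoter regions over Rps27, Rab13, Jtb, Slc39a1, Crtc2 and Dennd4b in 53.4 kb. The second, 37.2, was a cluster of replication-dependent histone genes around H1f3 at chr13:23530229-23586896, with 21 members in 56.7 kb. Its members were many and weak, with median folds of 2.53 and 2.50 and a median mean percentile of 5.37. The third, around Rdm1 at chr11:101604537-101666072, reached 37.0 with 6 distal members of 9, and 4 of these lay at small nuclear or nucleolar RNA genes. The 9 members at Abt1 (chr13:23401307-23450480) gave 32.1, and all 8 distal ones lay beside tRNA genes. Ppox, an enzyme of haem synthesis, lay in a stitched region of 4 strong promoter regions (chr1:171269555-171295420) with median folds of 6.70 and 7.26. The first 10 also held Mta2, Ifnz, Eif5a, Vps51 and Zbtb26 at their centres, with sums from 30.5 to 32.5. None of the 10 had a member of the crest, arch or Hox lists as its central gene.

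By number of members the order was H1f3 with 21, Ifnz with 15, and Cirbp, H2ac4 and Atg7 with 11 each. The region around Ifnz (chr4:88757133-88806035) held 14 promoter regions over 14 interferon-like gene copies at a median spacing of 2.92 kb, with median folds of 3.91 and 4.10. H2ac4 is a further histone cluster (chr13:23737923-23764204) with median folds of 2.45 and 2.64. Clusters of near-identical genes thus took 3 of the 5 places, and the share of reads that fit several copies cannot be read from peak lists. Cirbp, a cold-inducible RNA-binding protein gene, lay in a run of 9 promoter and 2 distal regions (chr10:80142395-80191045), with median folds of 3.70 and 3.16.

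Of the 90 stitched regions made of distal regions only, the one near Atg7, a gene of autophagy, had the most members. Its 11 regions spanned 54.7 kb at chr6:114574939-114629632 with median folds of 2.94 and 2.85, and no non-coding gene of the classes above lay beside any of them. The next was near Cstad, with 9 regions at chr2:30646905-30693950 and median folds of 3.04 and 2.79, 5 of them beside a long non-coding RNA gene. Gm40363 had 8 (chr6:47744826-47788882), with median folds of 4.43 and 3.88. By median mean percentile the highest of the 90 were near Eapp, Kif2c and Mreg. At Eapp 6 regions (chr12:54709691-54739216) had median folds of 7.60 and 8.07, and at Mreg 5 regions (chr1:72225866-72256288) had 5.98 and 8.24. All 6 and all 5 lay beside small nuclear or nucleolar RNA genes. Near Kif2c, 4 regions (chr4:117182690-117210958) had 7.76 and 7.11. At Chd2, a chromatin remodeller gene, 5 regions (chr7:73595480-73619362) had a median width of 1100 bp and median folds of 3.89 and 3.57.

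Counted by gene, most distal regions were assigned to Atg7 and Cstad with 13 each, 1700001O22Rik with 10, Chd2 and Rbfox2 with 8, and BC107364, Cuedc1, Maml3 and Zfp217 with 7. The regions of Cstad and 1700001O22Rik lie next to each other on chromosome 2, from position 30545336 to 30784798. Maml3, a coactivator of Notch signalling, had 6 of its 7 in a gene body, with folds from 2.34 to 5.55. Cuedc1 likewise had 6 of 7 in a gene body, with folds from 2.40 to 4.20. Rbfox2, a splicing factor gene, had 3 of 8 in a gene body, from 2.50 to 5.04. The Zfp217 regions all lay between genes, 10.7 to 77.8 kb from a start point. Chd2, Cuedc1, Maml3, Zfp217, Cstad and 1700001O22Rik also had a promoter region, and Atg7, Rbfox2 and BC107364 did not. Chd2 and Rbfox2 have no listed start, so only their gene ends were searched. None of these genes is in the crest or arch lists, where Sox8 and Nr2f1 had 3 distal regions each and Meis2 had 4.

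The regions left out for overlap with input peaks were few and mostly away from promoters. Of the 162, 14 lay at a promoter (8.64%), and 11 genes lost their promoter region with them. Of 368 input regions found in both input libraries, 202 (54.9%) overlapped an H3K27ac peak, 155 of them in both H3K27ac libraries. The 5 strongest of these lay 32.2 to 199.9 kb from the nearest genes, 2210408I21Rik, Cdk5rap2, Chl1, Pak3 and Rab10. The site near Rab10 (chr12:3109870-3110118) had folds of 35 and 34.0 in input and 20.1 and 20.5 with H3K27ac. The site near Chl1 (chr6:103649060-103649289) had 35.2 and 36.9 in input and 18.3 and 17.9 with H3K27ac. The site near 2210408I21Rik (chr13:77438912-77439055) had 38.4 and 38.8 in input and 10.3 and 11.6 with H3K27ac. The highest fold of any H3K27ac region kept was 12.7, so the highest fold of each H3K27ac list, 20.1 and 20.5, stood at a site also called in input. The sources used here do not give the control used in the peak calls.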

How the data were processed

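Per the submitters' processing notes, bcl2fastq 2.18.0.12, Bowtie2 2.3.3.1, Picard and MACS2 2.1.2 and the build mm10 were used. The deposited peak lists, 1 per library, give fold enrichment at the summit, a ratio, and the p-value and q-value of each peak as −log10 values, all computed by the authors' peak caller. Library depth is unknown. Rows with several summits of 1 interval were joined, keeping the highest fold. Overlap meant at least 1 bp. Genes and starts came from RefSeq tables of GRCm38.p6: 17492 of 21776 protein-coding genes had a listed start, and 4284 had ends only. For genes with ends only, a region counted at the promoter may lie at the 3′ end. Another 111 were left out for coordinates of unplaced sequence.

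Promoter shares were compared by exact permutation of 2 against 2 libraries, and all else is described without a test. Interval functions were checked on simulated data. Named regions were the 10 strongest of each class, the 10 stitched regions of highest sum, the 5 of most members, the 10 genes with most distal regions, and up to 4 list genes with and 4 without a promoter region, with further list members given as examples. The 18 lists hold 359 genes, all matched, and some of the genes so named are not reported here. The regions, lists and rules were chosen with earlier results of these data known. Alternatives were stricter q-values, other windows, overlaps and gaps, and leaving out each library. Python 3.11.15, pandas 2.3.3, numpy 2.4.6, scipy 1.17.1 and matplotlib 3.10.9 were used.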

Additional observations from a re-analysis of the deposited data

How the results depend on the processing

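Depth was unknown, and an exact permutation of 2 against 2 libraries cannot give a p below 0.333. Counts were called moved beyond 1.5 times, the share of regions at promoters beyond the SD between libraries, and rho beyond 0.005. The number of regions (12313 to 24082, against 17594) and of genes with a promoter region (9213 to 11495, against 10673) stayed within this. The promoter share of peaks exceeded that of input by 53.1 to 71.3 points. Pairing the libraries by number (replicate block) gave the same difference of 55.4 points, with p = 0.5 in an exact sign-flip test, the smallest it can give, and changed no call. The share of regions at promoters moved from 68.6% to 79.0% with peaks of −log10 q of at least 5. It moved to 65.9% with a window of 500 bp and to 70.9% with 2500 bp. With either annotated end of every gene (an alternative added after seeing the data) it moved to 63.6%. It moved to 60.4% without H3K27ac library 1 and to 58.6% without H3K27ac library 2. In these 2 settings a peak of the remaining library alone made a region. Without input library 1 or 2 it stayed at 68.6% and 68.5%. Stitched regions of 3 or more moved from 737 to 357 with −log10 q of at least 5. Their number moved to 223 over gaps of 5 kb, to 1360 over 25 kb and to 111 without promoter regions. It moved to 1278 without H3K27ac library 1 and to 1385 without H3K27ac library 2. Without input library 1 or 2 it stayed at 738 and 742. Spearman's rho became 0.781 with the stricter q-value.

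With −log10 q of at least 5, promoter regions were left in 3 crest specifiers, 5 arch mesenchyme, 1 anterior Hox, 3 autonomic neuron, 5 glia and melanocyte, 0 brain, 1 epithelial and 1 mesoderm genes. A window of 500 bp left 0 brain, 0 epithelial and 1 mesoderm genes, and one of 2500 bp gave 2 cardiomyocyte, 1 endothelial and 4 adult tissue genes. Either annotated end gave 0 cardiomyocyte and 4 adult tissue genes. Without 1 library, counts ran from 1 to 2 for cardiomyocyte, 5 to 8 for anterior Hox, 1 to 2 for brain, 0 to 3 for endothelial and 3 to 5 for mesoderm genes; the cardiomyocyte maximum was without H3K27ac library 1 and the other 4 without H3K27ac library 2. Ranked by −log10 q, 3 of the 10 strongest promoter and 4 of the 10 strongest distal regions stayed among the first 10, ranked by width none did, and 6 of the 10 stitched regions did by number of members. Apart from these rankings, 217 alternative values stayed within these limits and 34 did not.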
